A study of Homo sapiens with 6 samples.

Results

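The genes described here are the peroxisome genes of HepG2, an established human cell line from a liver tumour. They are the genes whose KEGG annotation in the deposited table lists the pathway Peroxisome, without MVK and PMVK, which act in the mevalonate pathway. The pathway lists 77 genes, so 75 of the 29153 listed genes were members. Of the 75, 66 had a mean FPKM of at least 0.5 over all libraries and were tested, and 9 lay below that limit. FPKM, the fragments of a gene relative to its length and the library size, is a level per length and is the scale used here to compare levels between genes.

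The study asked what the long non-coding RNA LINC01977 does in liver cancer cells. HepG2 cells received a lentivirus with a control hairpin (sh-NC) or with a hairpin against LINC01977 (sh-LINC01977), and total RNA was sequenced after 72 h, with 3 libraries in each group. The labels name a single hairpin per group and do not say whether the libraries came from separate cultures, so the p-values measure only the spread between these libraries, which may be technical. LINC01977 itself had counts of 4, 0 and 16 in sh-NC against 0, 0 and 4 in sh-LINC01977. Its reduction was thus not detectable at this depth, and in these counts the labels alone define the groups. The study reports that knockdown in HepG2 was checked by qRT-PCR, without saying whether on these samples.

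The peroxisome is a small organelle with a single membrane. It shortens very long-chain and branched fatty acids, finishes the side chain of bile acids, makes the first ether bond of plasmalogens, detoxifies glyoxylate and breaks down hydrogen peroxide. Its enzymes are made in the cytosol and brought in by the peroxin (PEX) proteins, which read targeting signals. Hepatocytes are rich in peroxisomes, and many of the genes for peroxisomal enzymes are targets of PPARα, a nuclear receptor that binds DNA together with RXR.

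Of the 66 tested peroxisome genes, 13 fell in sh-LINC01977 libraries, among them AGXT, CAT, HSD17B4, ACAA1, ACOX2, IDH1 and PRDX1, and 1, ABCD3, rose. AGXT, the glyoxylate-detoxifying enzyme, fell 3.60-fold and MPV17L, a small membrane protein, fell 1.87-fold. The other 11 that fell did so by less than 1.5-fold. A call means an adjusted p under 0.05, from the quasi-likelihood test of edgeR, with the Benjamini-Hochberg method applied over 13452 genes.

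The 14 members called were 21.2% of those tested, against 15.1% of all tested genes. The 13 lower members were 19.7%, against 8.07% of all tested genes, and the 1 higher member was 1.52%, against 7.05%. By the study's thresholds, at least 2-fold and an unadjusted P of at most 0.05, 1 member was lower (AGXT) and 0 were higher, against 1.05% and 1.55% of all tested genes. In 25 members (37.9%) the groups did not overlap, which was close to the 37.1% among all tested genes, with 19 of the 25 lower and 6 higher. Each of the 14 called members was among these, and the exact two-sided permutation test over libraries gives no p under 0.1 with 3 against 3.

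The median log2 fold change of the tested members was -0.054, against -0.0010 over all tested genes. With library totals in place of TMM scaling it was 0.012 and the median of all tested genes was 0.065, so its sign turned while the members stayed below the rest. The same scaling gave 9 lower and 2 higher members, so that 81.8% of the calls were lower in place of 92.9%. Over all tested genes it gave 768 lower (5.71%) and 1455 higher, in place of 1085 and 948. The TMM factors moved with the group, from 0.966 to 0.987 in sh-NC and from 1.01 to 1.04 in sh-LINC01977 libraries. Library totals lay between 50583944 and 59888839 counts in sh-NC and between 49929024 and 60441515 in sh-LINC01977 libraries. Counts of the mitochondrial genome made up 11.7% to 13.5% in sh-NC and 10.6% to 11.7% in sh-LINC01977 libraries.

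Summed over the 75 members, the level was 1623, 1731 and 1635 FPKM in sh-NC libraries and 1488, 1475 and 1525 FPKM in sh-LINC01977 libraries. Every sh-LINC01977 library lay below every sh-NC library. On the CPM scale, counts scaled to a library's total over tested genes times its TMM factor, the sums were 5941, 6080 and 5879 against 5269, 5313 and 5265. Over all 29153 listed genes, the FPKM sums were 319533 to 338114 in sh-NC and 306861 to 320190 in sh-LINC01977 libraries, with overlap. The CPM sums over all listed genes were 1017420 to 1039944 against 969721 to 993158, also without overlap. These all-gene sums are set almost wholly by the TMM factors, so their separation is not a measured fall. The same factors enter the members' CPM sums. In bulk RNA, fewer cells of a kind and less RNA per cell cannot be told apart. A single gene, PRDX1, held 708 of the FPKM in sh-NC and 601 in sh-LINC01977 libraries. The median tested member lay at 7.11 FPKM and the median of all tested genes at 4.14.

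**Figure D1:**
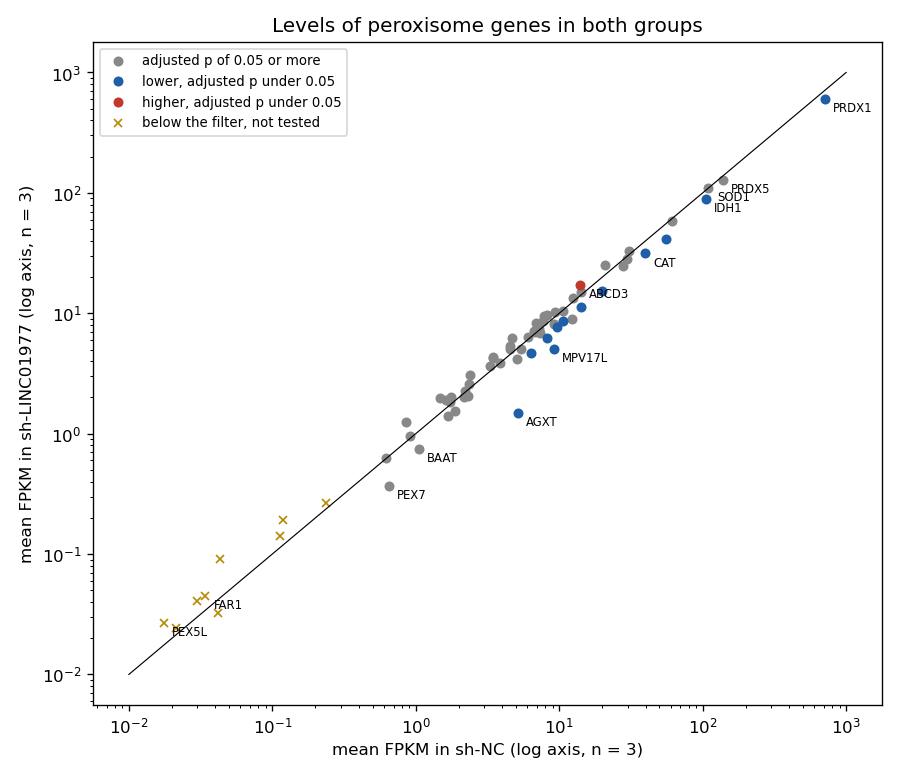
Mean FPKM of the peroxisome genes reported here in the 3 sh-LINC01977 libraries (vertical axis) against the 3 sh-NC libraries (horizontal axis), both on log axes, with blue and red points for members called lower and higher by edgeR, grey points for those not called and crosses for the 9 below the limit for testing. PRDX1 stands at the top at 708 and 601 FPKM, and AGXT lies farthest below the line of equality at 5.16 and 1.49 FPKM.

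Promoter sequences are shown for 4 called members: AGXT, which fell most, CAT, the classic peroxisomal marker enzyme, PECR, which holds an E-box, and ABCD3, the member that rose. They come from RefSeq (GRCh38.p14), as the bases upstream of the gene's start on the gene's strand. Of the 75 members, 37 had exactly 1 such window of 250 bases. Each window was searched on both strands for 2 copies of AGGTCA separated by 1 base, the element bound by PPAR and RXR (2 mismatches allowed), and for the E-box CACGTG. The windows of AGXT and PECR lie inside the intervals of these genes in the deposited table, so only the bases around the match are given.
AGXT, chr2:240868758-240868786, plus strand, the match (on the opposite strand) in capitals: accaatccTCACCTCTCACCTctgtgtcc
PECR, chr2:216081827-216081848, minus strand, the E-box in capitals: ctggtggtCACGTGggctcgag
CAT, chr11:34438684-34438924, plus strand, no match: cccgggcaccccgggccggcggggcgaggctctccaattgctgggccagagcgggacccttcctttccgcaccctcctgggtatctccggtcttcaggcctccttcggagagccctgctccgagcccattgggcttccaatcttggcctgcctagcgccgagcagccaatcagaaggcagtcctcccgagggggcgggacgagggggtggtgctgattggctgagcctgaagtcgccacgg
ABCD3, chr1:94418139-94418388, plus strand, no match: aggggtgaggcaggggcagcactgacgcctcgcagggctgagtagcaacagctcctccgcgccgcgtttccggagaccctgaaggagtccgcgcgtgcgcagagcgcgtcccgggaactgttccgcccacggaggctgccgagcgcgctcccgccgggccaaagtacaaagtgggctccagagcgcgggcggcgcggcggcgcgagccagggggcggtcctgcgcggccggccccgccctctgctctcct

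The repeat was found in 3 of the 37 windows (8.11%), those of AGXT, AGPS and SLC27A2, and in 577 of 22114 windows of all genes (2.61%). AGXT fell, whereas AGPS and SLC27A2 did not pass the test. The E-box was found in 2 of the 37 windows (5.41%), those of PECR and GNPAT, against 6.34% of all windows. A match of letters is a description of the sequence and does not show binding.

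AGXT (ENSG00000172482, chr2:240868479-240880502, plus strand) encodes alanine-glyoxylate aminotransferase, the liver enzyme that turns glyoxylate into glycine. Its CPM values were 29.0, 29.2 and 28.8 in sh-NC against 8.29, 7.99 and 7.89 in sh-LINC01977 libraries. The sh-NC mean was 29.0 ± 0.195 CPM and the sh-LINC01977 mean 8.05 ± 0.208 CPM (SD, n = 3). The spread within each group was thus small beside the gap between them. The log2 fold change was -1.85 ± 0.073 (SE; edgeR, adjusted p = 1.83e-04).

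Of the amino acid, polyamine and glyoxylate oxidases, grouped with AGXT by role, none passed the test. PIPOX, which oxidises pipecolic acid and sarcosine, had 86.8, 52.2 and 49.2 CPM in sh-NC and 37.5, 56.6 and 37.8 CPM in sh-LINC01977 libraries, and the groups overlapped (log2 fold change -0.51, edgeR adjusted p = 0.240). DDO, D-aspartate oxidase, had 3.71, 3.85 and 4.40 CPM against 5.14, 5.08 and 5.05 CPM, with no overlap (log2 fold change 0.35, edgeR adjusted p = 0.130). The D-amino acid oxidase DAO, the hydroxyacid oxidase HAO2 and the polyamine oxidase PAOX lay below the limit for testing.

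Of the 7 genes of the core β-oxidation cycle, 3 fell (42.9%, against 8.07% of all tested genes) and 0 rose. The median log2 fold change over the 7 was -0.18. Peroxisomal β-oxidation starts with an acyl-CoA oxidase, which passes electrons to oxygen and makes hydrogen peroxide, continues with a bifunctional enzyme and ends with a thiolase.
ACOX2 (chr3:58505136-58537319, minus strand), the oxidase for branched fatty acids and bile acid intermediates, had 39.2, 35.1 and 45.2 CPM in sh-NC and 27.4, 28.4 and 31.2 CPM in sh-LINC01977 libraries. Its highest sh-LINC01977 library lay below its lowest sh-NC library, by a small gap. The log2 fold change was -0.46 ± 0.11 (SE; edgeR, adjusted p = 0.0337). This call was lost when any library other than the second of sh-NC was left out. Over the 6 libraries left out in turn, its edgeR adjusted p ran from 0.0294 to 0.103.
HSD17B4 (chr5:119452443-119637199, plus strand), the D-bifunctional enzyme, fell from 146 ± 0.970 to 113 ± 3.01 CPM (SD, n = 3), a log2 fold change of -0.37 (edgeR, adjusted p = 0.00302). ACAA1 (chr3:38103129-38137242, minus strand), the 3-ketoacyl-CoA thiolase, fell from 87.1 ± 2.64 to 66.4 ± 3.07 CPM, a log2 fold change of -0.39 (edgeR, adjusted p = 0.00698).
Both calls stood in all 15 alternatives run on single genes, and neither gene reached a fold change of 2.

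The other genes of the cycle described here did not pass the test. EHHADH, the L-bifunctional enzyme, had 41.9, 44.3 and 45.3 CPM in sh-NC and 37.5, 41.5 and 36.7 CPM in sh-LINC01977 libraries. Its groups did not overlap, yet the difference missed the threshold (log2 fold change -0.18, edgeR adjusted p = 0.132). SCP2, a thiolase and sterol carrier, was at 0.046 (edgeR, adjusted p = 0.710), and ACOX3, another branched-chain oxidase, was at 0.07 (edgeR, adjusted p = 0.623), both log2 fold changes.

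Among 7 genes of α-oxidation and of branched-chain or unsaturated acyl-CoA handling, 2 fell (28.6%, against 8.07% of all tested genes) and 0 rose. Their median log2 fold change was -0.24. ECI2 (chr6:4115689-4135597, minus strand), an isomerase that moves double bonds so that β-oxidation can go on, had 110.2, 117 and 115 CPM in sh-NC and 84.5, 85.4 and 81.8 CPM in sh-LINC01977 libraries. The groups were far apart beside their spread, with a log2 fold change of -0.44 ± 0.049 (SE; edgeR, adjusted p = 0.00251). PECR (chr2:215996329-216082955, minus strand), a trans-2-enoyl-CoA reductase, fell from 42.4 ± 3.20 to 33.0 ± 1.73 CPM (SD, n = 3), a log2 fold change of -0.36 (edgeR, adjusted p = 0.0251). The call of PECR was lost without the first or second sh-NC library, and without the first or the third sh-LINC01977 library. Over the 6 libraries left out in turn, its edgeR adjusted p ran from 0.0454 to 0.0813.
PHYH, phytanoyl-CoA hydroxylase and the first step of α-oxidation, was at a log2 fold change of -0.16 (edgeR, adjusted p = 0.247). HACL1, the lyase of the same pathway, was at 0.20 (edgeR, adjusted p = 0.188), and in both genes the groups overlapped. AMACR, which racemises branched acyl-CoA, DECR2 and ECH1, both of unsaturated acyl-CoA handling, had groups that overlapped.

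Of the 8 members that shuttle or hydrolyse acyl groups, none passed the test in either direction. BAAT, which joins bile acids to glycine or taurine, had 5.44, 4.20 and 3.94 CPM in sh-NC and 2.98, 2.81 and 3.44 CPM in sh-LINC01977 libraries. These groups did not overlap, with a log2 fold change of -0.56 (edgeR, adjusted p = 0.0932). In the other direction, the nudix hydrolases NUDT12 and NUDT7 and the acyl-CoA thioesterase ACOT8 had log2 fold changes of 0.48, 0.26 and 0.28 without overlap between groups, and their edgeR adjusted p-values were 0.212, 0.192 and 0.136. The carnitine acyltransferase CRAT was at -0.23 (edgeR, adjusted p = 0.160), again without overlap.

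The acyl-CoA synthetases, which activate fatty acids by joining them to coenzyme A, also had no member past the test. Of the 5 tested, 4 had a log2 fold change above 0 and the median was 0.17. They ranged from -0.13 for ACSL4, with 61.1 FPKM in sh-NC and 58.4 FPKM in sh-LINC01977 libraries, to 0.21 for ACSL5, with 20.9 and 25.3 FPKM. ACSL6 lay below the limit for testing.

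**Figure D2:**
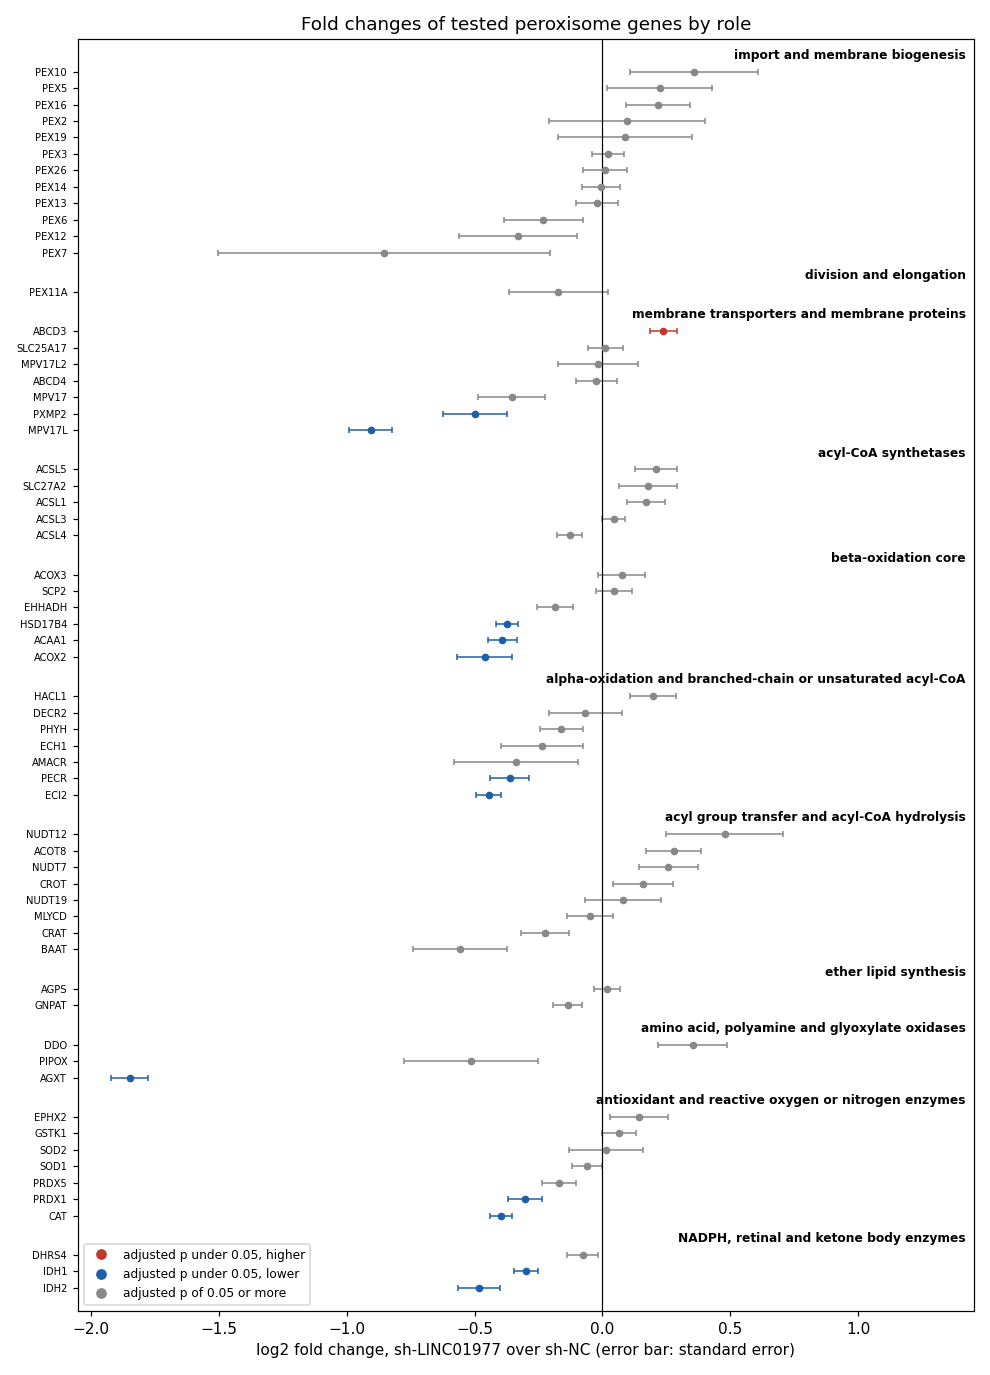
Log2 fold change (sh-LINC01977 against sh-NC, edgeR) of the tested peroxisome genes reported here, as points with error bars of 1 standard error, grouped by role in the organelle. The members called lower range from AGXT at -1.85 to IDH1 at -0.30. The import, division, acyl-CoA synthetase, acyl transfer and ether lipid groups have no called member.

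Of the 7 tested antioxidant genes, 2 fell (28.6%, against 8.07% of all tested genes) and 0 rose. CAT (ENSG00000121691, chr11:34438925-34472062, plus strand), catalase, the enzyme that splits hydrogen peroxide, had 163, 166 and 172 CPM in sh-NC and 128, 125 and 127 CPM in sh-LINC01977 libraries. These groups lay well apart, with a log2 fold change of -0.40 ± 0.043 (SE; edgeR, adjusted p = 0.00251). PRDX1 (chr1:45511036-45523047, minus strand), a peroxiredoxin found largely in the cytosol, had 1285, 1504 and 1283 CPM in sh-NC and 1095, 1097 and 1113 CPM in sh-LINC01977 libraries. The second sh-NC library stood above the others, and the log2 fold change was -0.30 (edgeR, adjusted p = 0.0277). The call of PRDX1 was lost when any of the 3 sh-LINC01977 libraries was left out, with adjusted p from 0.0230 to 0.0827 over the 6 libraries left out in turn.
The superoxide dismutases SOD1 and SOD2 and the peroxiredoxin PRDX5, with log2 fold changes of -0.06, 0.015 and -0.17, did not pass the test and their groups overlapped. The glutathione transferase GSTK1 and the epoxide hydrolase EPHX2, at 0.07 and 0.14, did not pass it either. NOS2, the inducible nitric oxide synthase, lay below the limit for testing.

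Both NADP-dependent isocitrate dehydrogenases fell. IDH2 (chr15:90083045-90102504, minus strand), best known as a mitochondrial enzyme, had 196, 216 and 179 CPM in sh-NC and 151, 136 and 136 CPM in sh-LINC01977 libraries, without overlap. Its log2 fold change was -0.48 ± 0.082 (SE; edgeR, adjusted p = 0.0116). IDH1 (chr2:208236227-208266074, minus strand), which makes NADPH in the cytosol and the peroxisome, fell from 627 ± 26.7 to 509 ± 15.3 CPM (SD, n = 3), a log2 fold change of -0.30 (edgeR, adjusted p = 0.00816). The retinal reductase DHRS4, at a log2 fold change of -0.08, did not pass the test.

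Of the 8 membrane genes, 3 fell (37.5%, against 8.07% of all tested genes) and 1 rose, against 7.05% of all tested genes. MPV17L (chr16:15395754-15413268, plus strand), a small membrane protein linked to the handling of reactive oxygen species, had 69.4, 70.3 and 68.0 CPM in sh-NC and 37.3, 40.6 and 33.0 CPM in sh-LINC01977 libraries. The groups were far apart, with a log2 fold change of -0.91 ± 0.083 (SE; edgeR, adjusted p = 0.00155). PXMP2 (chr12:132687606-132704991, plus strand), a channel-forming membrane protein, had 11.8, 10.8 and 11.2 CPM in sh-NC and 7.52, 9.20 and 7.15 CPM in sh-LINC01977 libraries. Its log2 fold change was -0.50 ± 0.13 (SE; edgeR, adjusted p = 0.0433). The call of PXMP2 was lost when any library other than the second of sh-LINC01977 was left out. Over the 6 libraries left out in turn, its edgeR adjusted p ran from 0.0352 to 0.123. MPV17, a relative of both, was at -0.36 with overlapping groups (edgeR, adjusted p = 0.122).

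ABCD3 (ENSG00000117528, chr1:94418455-94518666, plus strand), also called PMP70 and an ABC transporter of branched-chain and bile acid intermediates, had 133, 127 and 137 CPM in sh-NC and 148, 160.0 and 161 CPM in sh-LINC01977 libraries. Every sh-LINC01977 library lay above every sh-NC library. The log2 fold change was 0.24 ± 0.054 (SE; edgeR, adjusted p = 0.0297). The call of ABCD3 was lost when any library other than the first of sh-LINC01977 was left out. Over the 6 libraries left out in turn, its edgeR adjusted p ran from 0.0383 to 0.0949. ABCD4, a lysosomal vitamin B12 transporter, and SLC25A17, a carrier of cofactors, were at -0.025 and 0.010 and did not pass the test.

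None of the 13 tested import and membrane biogenesis genes passed the test in either direction, with a median log2 fold change of 0.022. PEX5, the receptor for the common targeting signal, had 64.7, 61.0 and 36.4 CPM in sh-NC and 64.5, 63.5 and 61.1 CPM in sh-LINC01977 libraries. A single library, the third of sh-NC, lay far below the other 5, and the log2 fold change was 0.22 ± 0.20 (SE; edgeR, adjusted p = 0.506). PEX14, the docking protein at the membrane, was at -0.0072 (edgeR, adjusted p = 0.962), a sign that also turned with library totals.
PEX7, the receptor for the second targeting signal, had the lowest level of the tested members and the widest error. Its counts were 100, 79 and 65 in sh-NC against 72, 63 and 8 in sh-LINC01977, and the fitted log2 fold change of -0.85 had a standard error of 0.65 (edgeR, adjusted p = 0.422). The division gene PEX11A, at -0.17, did not pass the test either.

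Of the 4 genes of ether lipid synthesis, which supplies plasmalogens, 2 could be tested and neither passed. GNPAT, which adds the first acyl group, had 114, 119 and 125 CPM in sh-NC and 105, 107 and 113 CPM in sh-LINC01977 libraries, without overlap (log2 fold change -0.14, edgeR adjusted p = 0.158). AGPS, which makes the ether bond, was at 0.018 (edgeR, adjusted p = 0.851). GNPAT and AGPS stood at 29.9 and 14.3 FPKM in sh-NC libraries. The fatty acyl-CoA reductases FAR1 and FAR2, which supply the fatty alcohol, were listed at 0.0219 to 0.0405 and 0.0142 to 0.0609 FPKM in sh-NC libraries.

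The 9 members below the limit for testing were ACSL6, DAO, HAO2, PAOX, NOS2, PEX11G, FAR1, FAR2 and PEX5L. Their FPKM did not exceed 0.382 in any library, a value that DAO reached. PEX11G had counts of 3, 4 and 0 in sh-NC and 4, 4 and 0 in sh-LINC01977 libraries, so differences in it were not detectable at this depth.

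**Figure D3:**
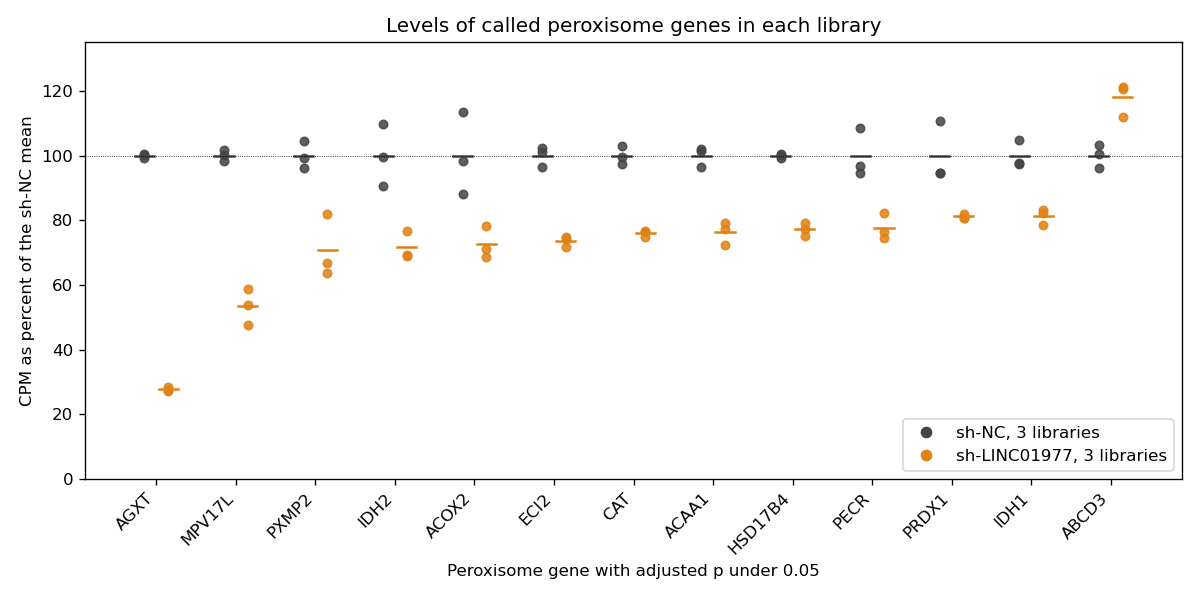
CPM in each of the 6 libraries, as points, in percent of the mean of the 3 sh-NC libraries, with a bar for each group's mean, for the called peroxisome genes reported here. In each of them the points of the groups are separate, from AGXT, at 8.05 against 29.0 CPM, to ABCD3, at 156 against 133 CPM.

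The 52 tested members that were not called had log2 fold changes from -0.85 (PEX7) to 0.48 (NUDT12), with 26 below and 26 above 0. In 42 of them the log2 fold change was smaller than 0.3 in size, and 11 had an unadjusted p under 0.05. The median standard error over the 66 tested members was 0.090.

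In the deposited annotation, 71 of the 75 members carry a peroxisomal GO term. A mitochondrial GO term is carried by 41 of the tested members, of which 11 fell and 1 rose, and is absent from 25, of which 2 fell. A peroxisomal matrix term is carried by 28 tested members, with 7 lower and 1 higher, and is absent from 38, with 6 lower. A peroxisomal membrane term is carried by 32, with 6 lower and 1 higher, and is absent from 34, with 7 lower. For comparison, 8.07% of all tested genes fell and 7.05% rose. The differences between these classes were not tested. Strand is not stated for the counting, and 5 called members share over 10% of their exon bases with another listed gene. They are PXMP2 (29.1%), ECI2 (27.1%), PRDX1 (24.9%), ACAA1 (21.2%) and MPV17L (10.7%), so part of their counts may belong to the neighbour.

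The regulators of peroxisomal genes were read from lists outside the pathway. Of 11 tested genes of PPARα and its partners, 2 were lower (18.2%) and 1 higher (9.09%). Among all tested genes, 8.07% were lower and 7.05% higher. PPARA, the gene of PPARα, had 24.9, 37.5 and 9.73 CPM in sh-NC and 6.61, 17.9 and 42.4 CPM in sh-LINC01977 libraries. Its groups overlapped, with a log2 fold change of -0.11 (edgeR, adjusted p = 0.940). PPARGC1A, a coactivator, had a log2 fold change of -1.02 (edgeR, adjusted p = 0.003), RXRA, the partner receptor, -0.48 (edgeR, adjusted p = 0.012), and PPARD, a related receptor, 0.51 (edgeR, adjusted p = 0.008). Of 11 tested PPARα targets outside the peroxisome, 2 were lower and 0 higher: CPT1A, the gate of mitochondrial fatty acid import, at -0.27 (edgeR, adjusted p = 0.021), and FABP1, a fatty acid carrier, at -0.77 (edgeR, adjusted p = 0.010).
Of 5 tested genes of bile acid synthesis outside the peroxisome, 2 were lower and 0 higher, namely HSD3B7 at -0.51 (edgeR, adjusted p = 0.005) and AKR1D1 at -1.59 (edgeR, adjusted p = 0.011), both modifiers of the steroid ring. These sit upstream of ACOX2, HSD17B4 and ABCD3 in the making of bile acids.

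Of 13 tested peroxisomal proteins that the KEGG pathway leaves out, 2 were lower (15.4%) and 1 higher (7.69%), against 8.07% and 7.05% of all tested genes. HSDL2 was at -0.32 (edgeR, adjusted p = 0.015), ISOC1 at -0.33 (edgeR, adjusted p = 0.034) and ACBD4, a tether to the endoplasmic reticulum, at 0.29 (edgeR, adjusted p = 0.049). Of 4 tested genes of contact and turnover, 1 was higher, NBR1, a receptor for selective autophagy, at 0.38 (edgeR, adjusted p = 0.002). Of 6 genes of the fission machinery shared with mitochondria and of 4 tested genes for plasmalogen steps in the endoplasmic reticulum, none passed the test in either direction.

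Other KEGG pathways are set beside the members. Fatty acid degradation, which shares 9 tested genes with the members, had 10 lower and 0 higher of 33 tested, and a median log2 fold change of -0.12. Of its 24 tested genes that are not members, 8 were lower. Lysosome, another single-membrane organelle that shares no gene with the members, had 11 lower and 13 higher of 106 tested, and a median of 0.058. PPAR signaling pathway had 12 lower and 3 higher of 45 tested, and a median of -0.087. Primary bile acid biosynthesis had 4 lower and 0 higher of 11 tested, and a median of -0.34. In both, any genes shared with the members were left in. Among all tested genes, 8.07% were lower and 7.05% higher. The differences between the pathways were not tested.

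Marker genes of the hepatocyte line moved with the group as well. Of 9 markers, 7 were lower (77.8%, against 8.07% of all tested genes) and 0 higher. Their summed level was 4444 to 4813 FPKM in sh-NC and 3128 to 3195 FPKM in sh-LINC01977 libraries. The part of these markers in the fall of peroxisomal genes was not tested. The 3 endothelial markers summed to at most 0.441 FPKM in any library, and VIM and COL3A1, the 2 listed mesenchymal markers, to at most 0.255 FPKM. Of 3 leukocyte markers, PTPRC was listed at a mean of 0.002 FPKM in sh-NC and 0 in sh-LINC01977 libraries. The leukocyte sum, 625 to 632 FPKM in sh-NC and 542 to 557 FPKM in sh-LINC01977 libraries, was nearly all LYZ, which was lower. The remaining leukocyte marker had a log2 fold change of 0.44 without overlap between groups, and did not pass the test.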

How the data were processed

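Per the labels and methods, RNA of 3 sh-NC and 3 sh-LINC01977 HepG2 samples was isolated using TRIzol, and an Illumina HiSeq was used for sequencing. The authors deposited whole-number counts per gene without normalization and FPKM values scaled to transcript length and library total. The submitters' processing notes name bcl2fastq 2.0, HISAT2, StringTie, DESeq2, limma and hg38, and the annotation, the counting tool and strand use are not given in the sources used here. Columns used were the 6 of counts and the 6 of FPKM.

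The 13452 genes whose mean FPKM reached 0.5 were tested on counts in edgeR 4.0.16 under R 4.3.3, using its quasi-likelihood test, TMM scaling and Benjamini-Hochberg adjustment, with the group as the single term. A call was an adjusted p under 0.05. Standard errors are the log2 fold change divided by the square root of F. Library totals lay between 49929024 and 60441515. Alternatives used limma 3.58.1, DESeq2 1.42.0, other scalings, filters and pseudocounts, a replicate block, and each library left out. On simulated counts for 13452 genes, 200 of which differed by 1 on the log2 scale, 71% of the 200 were called, with 10 false calls. Changes below 2-fold, where all called members but AGXT lay, were not simulated. Replicates of a group differed far beyond sampling noise (chi-square per degree of freedom from 42.7 to 52.6).

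Members called with a log2 fold change of at least 0.4 in size were given with their values in every library, other called members and a set of textbook members by fold change, and uncalled members by value where the role needed it. Genes outside the pathway were named where called, PPARA as the receptor, and VIM, COL3A1, PTPRC as markers. The members and lists were chosen with earlier results of these data known. Exon overlaps were computed in GENCODE 29. Peroxisomal targeting signals in the proteins were not analysed here. Some members are counted in the totals but not reported here by name.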

Additional observations from a re-analysis of the deposited data

How the results depend on the processing

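Of the 14 called members, 8 (AGXT, MPV17L, IDH1, IDH2, ECI2, CAT, ACAA1 and HSD17B4) passed the threshold in all 15 alternatives run on single genes, and the other 6 lost it in some. The count of 13 lower members was 8 to 10 with 1 library left out (8 without the first or the third sh-LINC01977 library) and 1 under the fold change and unadjusted P thresholds of the study. It was 9 to 13 under the other settings. With 1 library left out, 8.74% to 10.4% of all tested genes were called, against 15.1% with all 6. The count of 1 higher member was 0 to 1 with 1 library left out, 2 with library totals, DESeq2 and limma at each pseudocount, and 0 without the filter and under the fold change thresholds. The median log2 fold change of -0.054 was -0.080 to -0.039 with 1 library left out and -0.035 without the filter. It turned to 0.012 with library totals and to 0.0068, 0.0040 and 0.0075 with limma on log2(FPKM + 0.1), log2(FPKM + 1) and log2(FPKM + 0.01). The median of all genes shifted with it, and the members' median stayed 0.038 to 0.081 below.

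Signs of uncalled members near 0 also turned. PEX14 was at 0.058 with library totals, 4.2e-04 with a minimum mean FPKM of 1, 0.059, 0.052 and 0.059 with limma, and -0.058 to 0.027 with 1 library left out. With 1 library left out AGPS ranged from -0.021 to 0.056 and SCP2 from -0.018 to 0.11. DDO passed the threshold with limma (adjusted p from 0.0482 to 0.0491).

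Libraries sharing a replicate number had deviations that correlated at -0.029, 0.017 and 0.055, against -0.070 to 0.053 for the other pairs. These values show no sign of pairing, but they cannot show that the libraries were not prepared in matched sets. With a replicate block the test called 9 members lower and 0 higher, while the share of all tested genes called went from 15.1% to 10.3% and the share called lower from 8.07% to 5.61%. Causes of these changes were not tested. Genes under the limit for testing, and PEX7, are read with little precision at this depth.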

Other observations

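Several import genes differed more between libraries of a group than between groups. PEX10, a ubiquitin ligase of receptor recycling, had 28.3, 25.1 and 13.8 CPM in sh-NC against 26.8, 31.1 and 28.1 CPM in sh-LINC01977. PEX19, a chaperone of membrane proteins, had 61.0, 40.4 and 29.9 CPM against 55.1, 45.7 and 38.7 CPM. Like PEX5, both were lowest in the third sh-NC library. PEX2, a ligase of the same complex as PEX10, had 33.3, 18.3 and 33.6 CPM against 36.6, 20.0 and 34.5 CPM, so the second library was lowest in each group. These genes were chosen after their values were seen, and the spread was not tested.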
